A study of Mus musculus with 6 samples.

Results

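ATRX and DAXX were compared within mouse embryonic stem cells that lack the DNA methyltransferases (TKO cells), using the 2 lists of chromatin immunoprecipitation (ChIP-seq) peaks deposited for these proteins. A peak is an interval in which reads of the precipitated DNA piled up above the background of the peak caller. The ATRX list held 1650 peaks and the DAXX list 2046, together 3696 of the 7165 peaks in the 6 lists of the series. A peak was called shared if it had at least 1 bp in common with a peak of the other protein, and single if it had none. The groups were TKO cells precipitated with the ATRX antibody (SC-15408), with the DAXX antibody (SC-7152) or with rabbit IgG, which binds no chromatin protein in particular and gives the background. The same 3 precipitates of wild-type J1 cells (WT) entered only where stated. All cells, WT and TKO, grew under 2 kinase inhibitors, PD0325901 (1 µM, against MEK) and CHIR99021 (3 µM, against GSK3). All were fixed in 4% paraformaldehyde for 10 min, and 10 ng of DNA is given for each sample. Whether the TKO line is a single clone is not said in the labels, and peak lists offer no marker by which to check the cell type. Each group held 1 library. No difference had a replicate check, and intervals in the text are exact 95% binomial intervals that cover counting error over peaks only.

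ATRX is a chromatin remodeller of the SNF2 family, and DAXX is a histone chaperone that binds ATRX and the histone variant H3.3. Together they place H3.3 at telomeres, pericentromeric satellites and other repeated DNA, where H3K9 trimethylation marks silent chromatin. DNA methylation is the other main silencing mark of such DNA in mouse cells, and the series asked how ATRX and DAXX are placed on chromatin where it has been lost. The peak lists hold no measure of methylation, H3.3 or H3K9 trimethylation.

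A limit of the DAXX list precedes the results. Of its 2046 peaks, 750 (36.7%) had the same start and end as a peak labelled WT ATRX, whereas 0 of its overlaps with TKO ATRX peaks had both ends in common. The lists do not tell which label fits these peaks, so values are given with them and, where computed, without them. The lowest scores in the ATRX and DAXX lists were 70 and 70.01, and the total read number of the libraries is not known from the files used here. A protein without a peak was therefore not shown to be absent from that place.

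ATRX and DAXX peaks of TKO cells coincided in 106 regions. They comprised 107 ATRX peaks, which was 6.48% of the ATRX list (5.34 to 7.78), and 112 DAXX peaks, which was 5.47% of the DAXX list (4.53 to 6.55). The other 1543 ATRX peaks and 1934 DAXX peaks were single. Overlap with IgG peaks is given beside these shares. Only 3 ATRX peaks (0.182%, 0.0375 to 0.530) and 5 DAXX peaks (0.244%, 0.0794 to 0.569) overlapped a TKO IgG peak. The IgG list covered about as much of the genome as the DAXX list, 750.3 kb in 1057 peaks against 755.1 kb, while the ATRX list covered 670.1 kb. More ATRX peaks met a DAXX peak than met an IgG peak, at nearly equal covered length but unequal peak number, 2046 against 1057. The DAXX peaks were also shorter, with a median of 328 bp against 574 bp for IgG. Which library served as control in the authors' peak calls is not given, and a control removes peaks that it holds itself. The comparison with IgG is therefore a description only. Without the 750 identical peaks, 61 ATRX peaks (3.70%, 2.84 to 4.72) and 66 of 1296 DAXX peaks (5.09%, 3.96 to 6.43) were shared.

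Where peaks of the proteins overlapped, they lay on top of each other rather than side by side. There were 113 overlapping pairs, and the median shared stretch was 423 bp, with the middle 50% of pairs between 306 and 644 bp. The shortest shared stretch was 46 bp and the longest 5858 bp. In 111 of the 113 pairs the shared stretch made up at least 50% of the shorter peak. The DAXX peak lay wholly inside the ATRX peak in 46 pairs, the ATRX peak wholly inside the DAXX peak in 17, and the ends were staggered in 50. The ATRX peak was the wider one in 79 pairs and the DAXX peak in 34. The centres were a median of 53 bp apart, and 77 pairs had centres within 100 bp. Of the 112 shared DAXX peaks 46 were identical in the WT ATRX list, and the pairs were not measured without them. A looser rule added few peaks. Among the single peaks, 13 of 1543 ATRX peaks (0.842%) and 20 of 1934 DAXX peaks (1.03%) had a peak of the other protein within 1 kb.

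**Figure D1:**
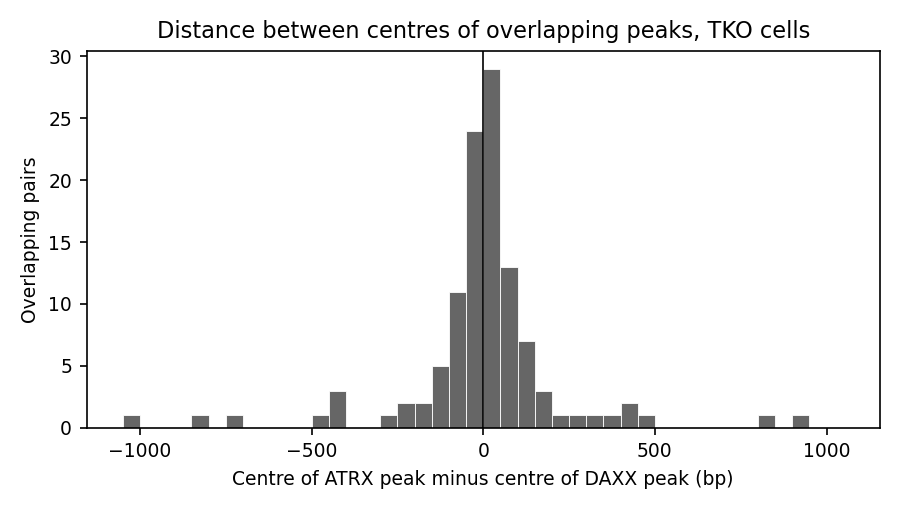
Histogram of the distance in bp from the centre of the DAXX peak to the centre of the ATRX peak, in bins of 50 bp, for the 113 overlapping pairs in TKO cells. The pairs pile up around 0, with 77 of them within 100 bp and a tail reaching 1027 bp. Pairs with a DAXX peak identical in the WT ATRX list are included.

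Shared peaks were the stronger ones in both lists. The score of a peak is the authors' own value, taken to be 10 times the −log10 of a p-value, and it ranks peaks within 1 list. Shared ATRX peaks had a median score of 108.9 (95.6 to 141.3, n = 107), against 79.6 (79.1 to 80.6, n = 1543) for single ones. Shared DAXX peaks had a median of 106.4 (96.8 to 114.9, n = 112), against 82.3 (81.5 to 83.1, n = 1934). The ranges overlapped widely, since shared peaks began at 70.2 in both lists and single peaks reached 510.11 for ATRX and 578.12 for DAXX. Without the identical peaks the medians were 95.6 (87.5 to 127.5, n = 61) for ATRX peaks that met DAXX, and 96.9 (89.2 to 112.1, n = 66) for shared against 80.3 (79.6 to 81.2, n = 1230) for single DAXX peaks. The share of shared peaks rose most at the top of each list. In the highest-scoring 10% of the ATRX list, from a score of 116.18 up, 52 of 165 peaks were shared (31.5%, 24.5 to 39.2), and in the lowest-scoring 10% this held for 2 of 165 (1.21%, 0.147 to 4.31). The DAXX list went from 5 of 205 (2.44%, 0.797 to 5.60) in its lowest 10% to 45 of 205 (22.0%, 16.5 to 28.2) in its highest.

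How much of the upper end of each list was shared depended on the identical peaks. Of the ATRX peaks that scored 200 or more, 26 of 36 met a DAXX peak (72.2%, 54.8 to 85.8), and of the 50 highest 33 did (66%, 51.2 to 78.8). In the DAXX list 19 of 39 peaks at 200 or more met an ATRX peak (48.7%, 32.4 to 65.2), and 21 of the 50 highest did (42%, 28.2 to 56.8). Scores of different lists are on their own scales, so the 2 shares are given side by side and were not compared. Of the ATRX peaks at 200 or more, 8 of 36 met a DAXX peak outside the identical set (22.2%, 10.1 to 39.2), and of the 50 highest 10 did (20%, 10 to 33.7). In the DAXX list, at 200 or more, 16 of 26 identical DAXX peaks were shared (61.5%, 40.6 to 79.8) and 3 of 13 others (23.1%, 5.04 to 53.8). Both lists stop at about the same lowest score, and the part of this limit in the rise was not tested. Without the identical peaks the rise was still there. Of the ATRX peaks in the top 10% by score, 26 of 165 met a DAXX peak outside the identical set (15.8%, 10.6 to 22.2), against 35 of 1485 below it (2.36%, 1.65 to 3.26). Of the DAXX peaks outside that set, 19 of 97 in the top 10% of the list were shared (19.6%, 12.2 to 28.9), against 47 of 1199 below it (3.92%, 2.89 to 5.18).

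**Figure D2:**
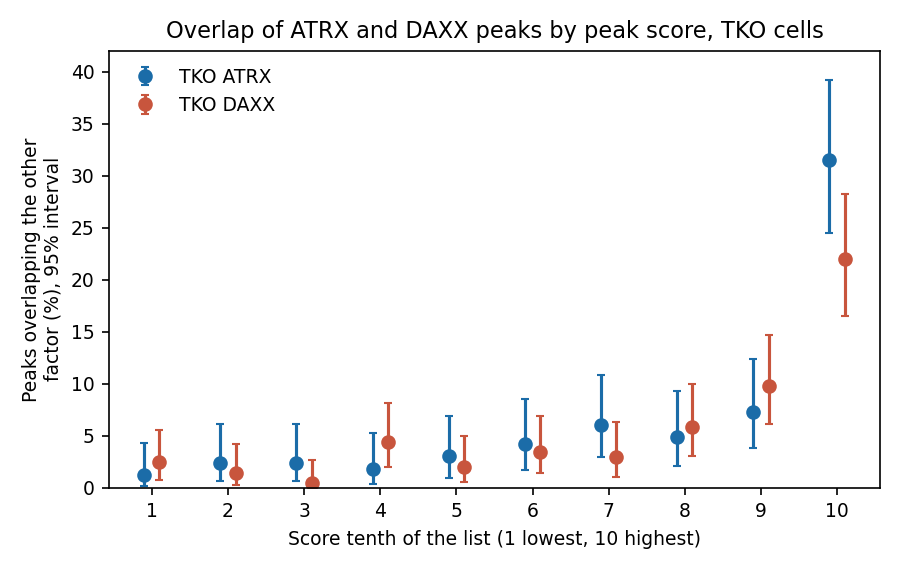
Percentage of peaks overlapping the other protein (vertical axis) in each 10% of the list ordered by score (horizontal axis, lowest at 1), for the TKO ATRX (blue) and TKO DAXX (red) lists. Points are shares and bars are exact 95% binomial intervals. The highest 10% stands at 31.5% for ATRX and 22.0% for DAXX, and each of the lowest 5 steps is under 5%.

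Shared peaks were also wider. The median width was 592 bp (512 to 723) for shared and 344 bp (340 to 349) for single ATRX peaks, and 452 bp (418 to 547) against 325 bp (322 to 329) for DAXX. Without the identical peaks the median was 543 bp (459 to 751) for ATRX peaks that met DAXX. For DAXX it was 425.5 bp (382 to 517) for shared and 330 bp (326 to 334) for single peaks. A wide peak has more bases with which to meet another, and wide peaks tend to score high, so width and score were split together. Among ATRX peaks above the median in both, 74 of 507 were shared (14.6%, 11.6 to 18). With 1 of the measures above its median the share was 15 of 318 for a high score alone (4.72%, 2.66 to 7.66) and 13 of 313 for a large width alone (4.15%, 2.23 to 7). With neither it was 5 of 512 (0.977%, 0.318 to 2.26). For ATRX the share was lowest with neither and highest with both, although the intervals of a large width alone and of neither just touched. For DAXX the share was 76 of 559 with both above the median (13.6%, 10.9 to 16.7). It was 14 of 464 for a high score alone (3.02%, 1.66 to 5.01), 9 of 451 for a large width alone (2.00%, 0.916 to 3.75) and 13 of 572 with neither (2.27%, 1.22 to 3.86). The intervals of the last 3 overlapped. Width also separated shared from single peaks within the highest 10% by score, with medians of 816 bp (629 to 1005) and 475 bp (429 to 541) for ATRX, and of 713 bp (594 to 883) and 415 bp (396 to 439) for DAXX. Score was not equal there. Its medians were 201.6 (161.9 to 265.5) for shared and 135.0 (128.7 to 142) for single ATRX peaks. For DAXX they were 164.9 (142.1 to 230.4) and 129.9 (126.5 to 134.3).

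**Figure D3:**
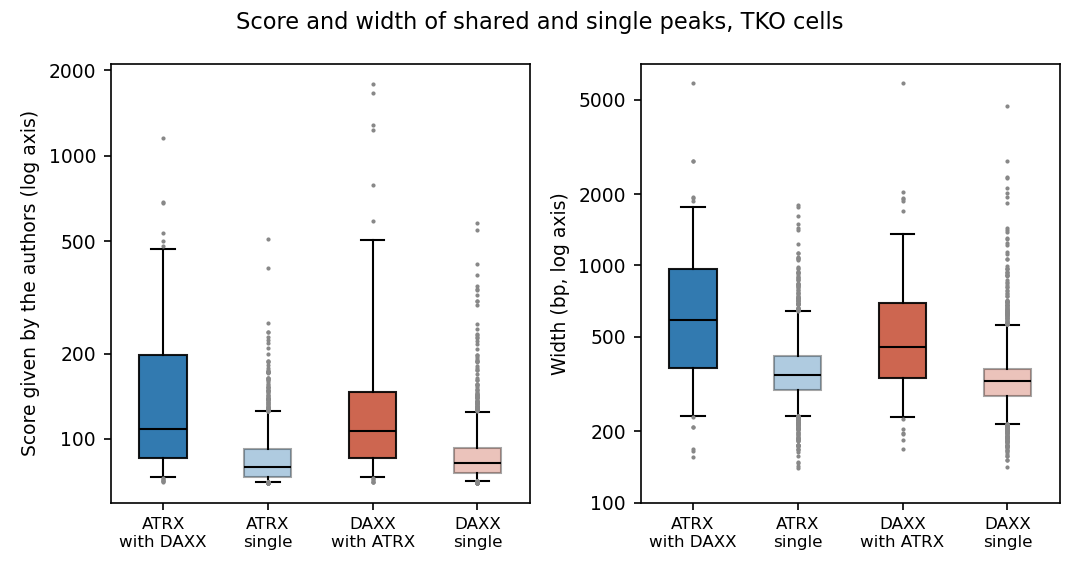
Score (left, log axis) and width in bp (right, log axis) of shared and single peaks in the TKO ATRX (blue) and TKO DAXX (red) lists. Boxes span the middle 50% of peaks with the median as a line, whiskers reach the lowest and highest 5%, and dots are peaks beyond them. The shared sets have the higher medians in both panels, 592 against 344 bp in width for ATRX and 452 against 325 bp for DAXX.

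Within the 106 regions the scores of the proteins were only loosely related. By rank, taken as a percentage of each list because the scores are on separate scales, ATRX stood higher in 62 regions and DAXX in 44. Spearman's rho between the scores was 0.39 over the 106 regions, given as a description because the peaks share a library and the lists are cut at about 70. It was 0.24 over the 61 regions without an identical peak and 0.39 over the 45 with one. Both proteins ranked in the top 10% of their lists in 30 regions, both scored 200 or more in 10, and both stayed under 100 in 24. The 61 regions without an identical peak had median scores of 95.6 for ATRX and 97.8 for DAXX. The 45 with one had medians of 157.3 and 133.6, so the identical peaks held much of the strong end.

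**Figure D4:**
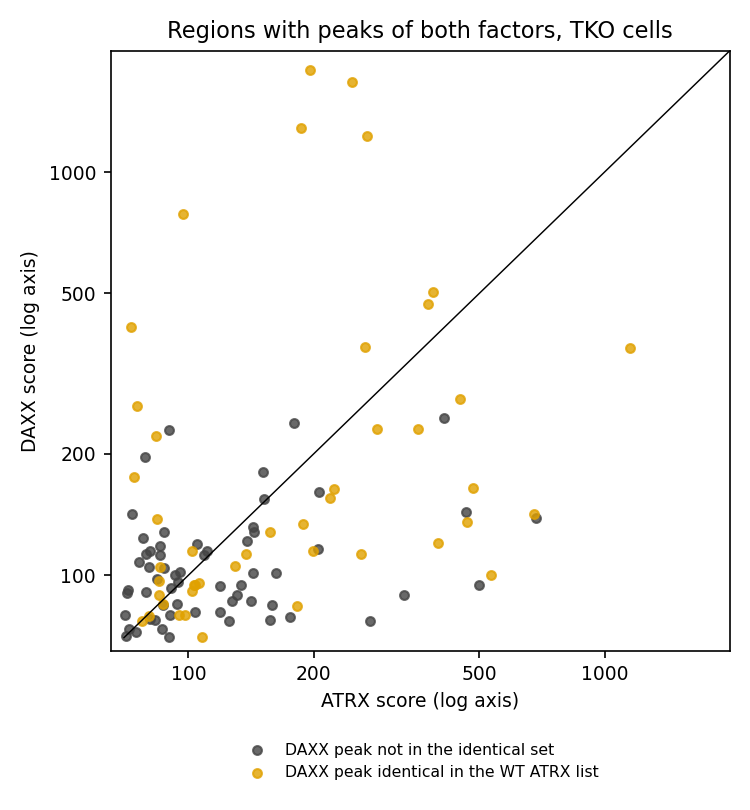
ATRX score against DAXX score (both log axes) for the 106 regions with peaks of both proteins in TKO cells; the line marks equal numbers, although each list has its own scale. Yellow points are the 45 regions whose DAXX peak is identical in the WT ATRX list and dark points the other 61. The points with the highest DAXX scores, up to 1792.48, are yellow.

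The 10 regions with the best mean rank for both proteins were led by chr18:24829925-24831980 in mm9, where ATRX had its highest score of all, 1152.59, and DAXX scored 366.75. The next was chr3:154135874-154137135, with 386.53 for ATRX and 502.74 for DAXX. A region at chr7:87938033-87939980 had 376.69 and 469.75, and chr9:23352115-23353287 had 265.52 and 367.64. In the last 3 both proteins were among the 21 highest peaks of their lists. At chr18:75759310-75760059 the scores were 448.95 for ATRX and 274.26 for DAXX, and this was the only one of the 10 that also met a WT DAXX peak. The region chr6:142698787-142699997 had 411.15 and 245.28, and it alone of the 10 did not rest on an identical peak.

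The remaining 4 of the 10 lay in 2 places and held the 4 highest DAXX peaks of all, with ATRX ranked between 20 and 43 of 1650. On chromosome 9 these were chr9:2999985-3001853, with 247.52 for ATRX and 1671.01 for DAXX, and chr9:3023282-3026056, with 267.89 and 1228.02. On chromosome 2 they were chr2:98506375-98507509, with 196.29 and 1792.48, and chr2:98502355-98503359, with 186.63 and 1286.1. The chromosome 9 sites are the start of the assembled sequence next to the centromere, and both places are known from mouse genome work for satellite-like sequence that gathers reads from unassembled copies. Repeat annotation was not used here. The TKO IgG list had 0 peaks before 3.2 Mb on chromosome 9, where the ATRX list had 6 and the DAXX list 27, and the TKO IgG peaks nearest to the chromosome 2 regions were over 5 Mb away. The WT IgG list had 1 peak in that stretch of chromosome 9. Of the 27 DAXX peaks, 11 were identical in the WT ATRX list. The 5 shared regions in that stretch spanned 30.4 kb, with DAXX scores from 195.98 to 1671.01 and ATRX scores from 72.67 to 267.89. In each of the 5 DAXX stood higher in its list than ATRX, by rank as a percentage of the list.

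Other regions were uneven in one direction or the other. Those named here were chosen by rank number, although the lists differ in length. Ranks as a percentage of each list would change their order and bring in some others. By rank number the difference in favour of ATRX was largest at chr16:93789413-93789782, with 108.02 for ATRX and 70.2 for DAXX. Next was chr4:63263243-63263497, with 89.73 and 70.28. In both the DAXX peak was near the lowest score of its list. A strong ATRX peak faced a weak DAXX peak at chr3:144152852-144154137, with 272.57 and 77.05. The other 2 of this group were chr18:10545664-10546368, with 157.07 and 77.24, and chr8:128216796-128217831, with 125.15 and 77.16. In favour of DAXX the widest gap was at chr9:3002022-3002690, with 72.67 for ATRX and 412.31 for DAXX. Next came chr8:119101860-119102704, with 73.13 and 142.1, and chr6:73379567-73379947, with 73.92 and 175.31. The last 2 were chr4:104677131-104677631, with 75.02 and 263.09, and chr9:3027647-3030427, with 78.78 and 195.98. In these 5 regions ATRX ranked between 934 and 1344 of 1650, in the lower part of its list, and DAXX between 12 and 81 of 2046.

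In 6 regions 3 or more peaks were joined, and the other 100 held 1 of each. One ATRX peak spanned 3 DAXX peaks at chr9:3027647-3030427 and 2 at chr9:3023282-3026056, both in the stretch near the centromere. An ATRX peak also joined 2 DAXX peaks at chr6:117742925-117744658 (175.31 for ATRX, 78.71 for the higher DAXX peak), at chr10:89276133-89276755 (94.28 and 96.08) and at chr17:6457017-6458338 (70.98 and 90.1). The reverse held at chr9:123842850-123844775, where 1 DAXX peak (164.77) joined 2 ATRX peaks (482.03 for the higher). The longest region, singled out after its values were seen, was chr17:39979926-39985786, where an ATRX peak of 5860 bp (465.08) and a DAXX peak of 5859 bp (143.45) covered nearly the same interval. It was not among the identical peaks. It met no WT DAXX peak, which held for most shared regions, since only 6 of 106 met one. As background, the mm9 assembly is known to carry a copy of the ribosomal RNA precursor gene Rn45s in this part of chromosome 17, which was not checked with an mm9 annotation here. Ribosomal genes are tandem repeats, a kind of sequence at which ATRX is known to bind.

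Strong peaks of one protein without the other were also found. The 5 highest ATRX peaks with no DAXX peak within 1 kb were chr13:59240260-59241328 (510.11), chr1:38865631-38867422 (401.74), chr1:194490821-194491471 (256.36), chr13:50000862-50001414 (239.35) and chr2:49103347-49104155 (239.23). None of these 5 met a peak of WT ATRX, WT DAXX or TKO IgG. Few of the 1543 single ATRX peaks did (0.454%, 0.518% and 0.194%), so this does not set the 5 apart. The nearest DAXX peak was 5.74 kb away for the site at 194 Mb of chromosome 1 and between 92.5 and 678.4 kb for the others. Of the 5 highest DAXX peaks with no ATRX peak within 1 kb, 4 lay in the stretch at the start of chromosome 9. They were chr9:3019582-3020648 (578.12), chr9:3034573-3036398 (545.63), chr9:3006106-3007550 (378.85) and chr9:3032222-3032901 (345.77), each between 1.49 and 4.18 kb from an ATRX peak. The remaining one was chr2:130034062-130035439 (413.31), which lay 159.8 kb from the nearest ATRX peak. All but the one starting at 3006106 were identical in the WT ATRX list.

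Shared peaks were found on all 21 chromosomes listed, in uneven shares. Chromosome 9 had the highest share among chromosomes with more than 1 peak per list for ATRX, 15 of 98 peaks (15.3%, 8.83 to 24.0), and for DAXX, 17 of 88 (19.3%, 11.7 to 29.1). Beyond the first 3.2 Mb of chromosome 9 the shares were 10 of 92 (10.9%, 5.34 to 19.1) and 9 of 61 (14.8%, 6.97 to 26.2). Chromosome 18 followed with 7 of 50 ATRX peaks (14%, 5.82 to 26.7) and 7 of 40 DAXX peaks (17.5%, 7.34 to 32.8). On both chromosomes most shared regions held a DAXX peak identical in the WT ATRX list. Over the whole set this held for 45 of 106 regions. Shares by single chromosome without the identical peaks were not computed. At the other end, chromosome 14 had 1 of 63 ATRX peaks (1.59%, 0.0402 to 8.53). On chromosome Y each list held 1 peak, and they coincided at chrY:2652187-2652355, with 87.45 for ATRX and 128.01 for DAXX. The interval left out the whole-list share only for chromosome 9 in both lists and for chromosomes 11 and 18 in the DAXX list, with no allowance for the number of chromosomes.

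The DAXX list was crowded on chromosomes 8 and 11, and the shared part was low there, mainly on chromosome 11. These chromosomes held 655 of its 2046 peaks, and only 17 of these were shared (2.60%, 1.52 to 4.12), against 95 of the 1391 DAXX peaks elsewhere (6.83%, 5.56 to 8.28). On chromosome 11 it was 7 of 402 (1.74%, 0.703 to 3.55), and on chromosome 8 it was 10 of 253 (3.95%, 1.91 to 7.15), an interval that includes the whole-list 5.47%. The ATRX list had 199 peaks on these chromosomes, of which 17 were shared (8.54%, 5.05 to 13.3), against 6.20% (5.02 to 7.57) elsewhere. With the DAXX list split into identical and other peaks, the share was lower on these chromosomes in both parts. The intervals parted only for the identical ones. Of the identical peaks 1 of 150 on these chromosomes was shared (0.667%, 0.0169 to 3.66) and 45 of 600 elsewhere (7.5%, 5.52 to 9.91). Of the others, 16 of 505 were shared on these chromosomes (3.17%, 1.82 to 5.09) and 50 of 791 elsewhere (6.32%, 4.73 to 8.25), with overlapping intervals.

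**Figure D5:**
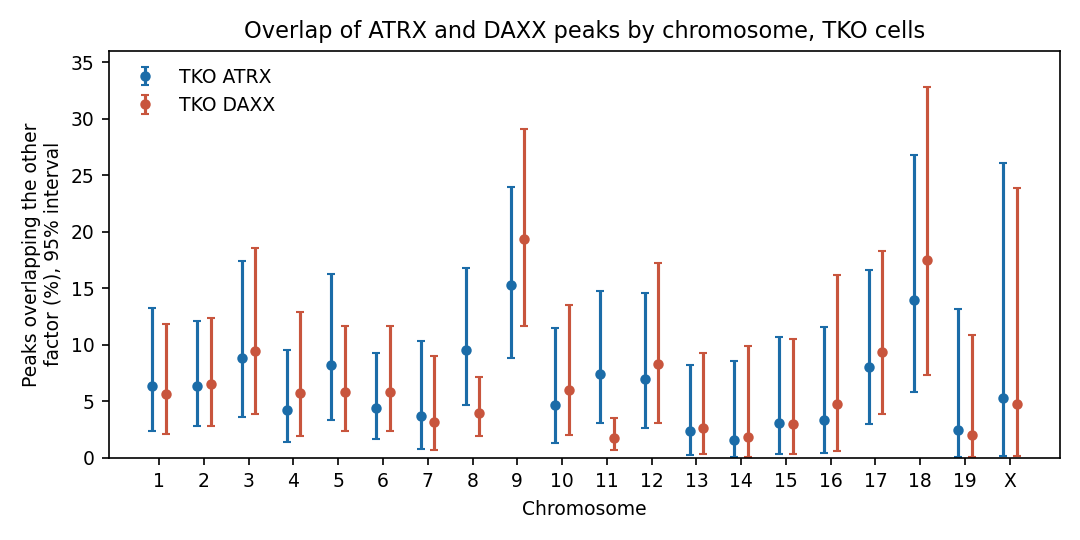
Percentage of peaks overlapping the other protein by chromosome (horizontal axis) for the TKO ATRX (blue) and TKO DAXX (red) lists, with exact 95% binomial intervals as bars; chromosome Y, with 1 peak per list, is left out. Chromosome 9 stands at 15.3% and 19.3%, and on chromosome 11 the DAXX share is 1.74%. DAXX peaks identical in the WT ATRX list are included.

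Shared peaks lay somewhat more often near the ends of chromosomes, although several of the intervals overlapped. Overlap of such intervals does not show that the shares are equal, and the differences were not tested. Mouse chromosomes have the centromere at their start, so the first 10 Mb of a chromosome are next to it. There 14 of 107 shared ATRX peaks were found (13.1%, 7.34 to 21.0), against 105 of 1543 single ones (6.80%, 5.60 to 8.18), with overlapping intervals. For DAXX it was 18 of 112 (16.1%, 9.81 to 24.2) against 137 of 1934 (7.08%, 5.98 to 8.32). Without the identical peaks the DAXX shares were 10 of 66 (15.15%, 7.51 to 26.1) and 88 of 1230 (7.15%, 5.78 to 8.74), with overlapping intervals. Of the 61 ATRX peaks that met a DAXX peak outside the identical set, 7 lay there (11.5%, 4.74 to 22.2). This interval also overlapped that of single ATRX peaks. Without the stretch before 3.2 Mb of chromosome 9, the share of ATRX peaks in the first 10 Mb that met DAXX went from 14 of 119 (11.8%, 6.58 to 18.9) to 9 of 113 (7.96%, 3.71 to 14.6), whose interval includes the 6.07% found beyond 10 Mb. The corresponding DAXX share went from 18 of 155 (11.6%, 7.03 to 17.7) to 10 of 128 (7.81%, 3.81 to 13.9), against 4.97% beyond. The excess near the centromere thus rested in large part on chromosome 9. At the other end, within 10 Mb of the last peak listed on a chromosome in the series, lay 30 of 107 shared ATRX peaks (28.0%, 19.8 to 37.6) and 222 of 1543 single ones (14.4%, 12.7 to 16.2). Off chromosomes 8 and 11 it was 22 of 90 (24.4%, 16 to 34.6) and 203 of 1361 (14.9%, 13.1 to 16.9), and these intervals overlapped. Of the 61 ATRX peaks that met a DAXX peak outside the identical set, 21 lay at this end (34.4%, 22.7 to 47.7). That interval was clear of the one for single ATRX peaks on all chromosomes. Chromosomes 8 and 11 were not left out of this share. For DAXX the shares were 29 of 112 (25.9%, 18.1 to 35) and 381 of 1934 (19.7%, 18 to 21.5), with overlapping intervals. Off chromosomes 8 and 11 the DAXX shares were 21 of 95 (22.1%, 14.2 to 31.8) and 194 of 1296 (15.0%, 13.1 to 17.0). On all chromosomes without the identical peaks they were 21 of 66 (31.8%, 20.9 to 44.4) and 273 of 1230 (22.2%, 19.9 to 24.6). The intervals overlapped in both cases. Among the TKO IgG peaks 23.9% lay in the first 10 Mb and 19.5% in the last.

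None of the shared peaks met a TKO IgG peak, which is close to the shares over the whole lists, 0.182% for ATRX and 0.244% for DAXX, and sets shared peaks apart in no way. The overlap was 0 of 107 ATRX peaks, with an interval up to 3.39%, and 0 of 112 DAXX peaks, with an interval up to 3.24%. The shared region nearest to an IgG peak was 18.6 kb away from it. The peaks that did meet IgG were single and mostly low in score. For ATRX they were chr4:146128447-146128810 (79.14), chr6:47712616-47713374 (83.71) and chr8:56203914-56204749 (77.85). For DAXX they were chr11:60482838-60483401 (85.39), chr8:56205306-56208060 (114.77), chr8:56208619-56209079 (75.85), and a pair at chr5:125866703-125866854 and chr5:125867159-125867310 (77.69 each). The 3 peaks on chromosome 8 met the same IgG peak, of 1526 tags and a fold enrichment of 6.55 as the authors give it, without meeting each other. The 3 highest IgG peaks were chr15:91738846-91740326 (1533.59, 326 tags), chr15:91737378-91738787 (1340.71, 293 tags) and chr8:27079862-27080611 (1178.92, 334 tags). The nearest ATRX or DAXX peak to any of them was 23.6 kb away.

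Some shared places also had a peak in WT cells. Of the 107 shared ATRX peaks, 7 met a WT DAXX peak (6.54%, 2.67 to 13), against 8 of the 1543 single ones (0.518%, 0.224 to 1.02). Of the 112 shared DAXX peaks 6 did (5.36%, 1.99 to 11.3), against 4 of 1934 (0.207%, 0.0564 to 0.529). The 7 ATRX peaks all lay on identical DAXX peaks, because of the 61 ATRX peaks that met another DAXX peak 0 overlapped WT DAXX. The interval of that share reached 5.87%. Of the 107 shared ATRX peaks 47 met a peak labelled WT ATRX, but only 2 (1.87%, 0.227 to 6.59) met one outside the identical set, against 7 of the single peaks (0.454%, 0.183 to 0.932), with overlapping intervals. Most of the shared places with a WT peak thus lay at identical peaks, whose label is open. Leaving out the identical set lowers the WT ATRX count by construction. The region chr3:144152852-144154137 held no identical peak and still met a WT ATRX peak.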

How the data were processed

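ATRX, DAXX and IgG precipitates of TKO cells were compared through the peak lists that the authors deposited, in mm9. Per the submitters' processing notes Bowtie2 and Picard were used; neither a version nor a role is stated. Peak names and columns are those of MACS per the file headers and names; for its version, settings and controls the sources used here give nothing. The score in column 5 of the ATRX and DAXX lists is the authors' value. Its scale is unnamed there and was read as 10 times the negative log10 p from the IgG tables, whose file headers give that score. Other deposited columns of the IgG tables are the count of tags per peak, the peak length and the fold enrichment.

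BED starts were changed to count from 1. Overlap was 1 bp or more, computed with Python 3.11.15, numpy 2.4.6 and pandas 2.3.3; bedtools 2.31.1 differed in 0 of 30 comparisons of lists, and on 40 simulated pairs of lists every planted overlap was returned. Shares carry exact Clopper-Pearson 95% intervals and medians binomial order-statistic 95% intervals (scipy 1.17.1). A count of 0 carries the same exact interval. Nothing was tested between groups, as each has 1 library.

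Named regions were the 10 of best mean rank and the 5 most uneven each way by rank number. Those joining 3 or more peaks or meeting IgG (0 did) were also named. So were the 5 highest single peaks per list more than 1 kb from the other protein, and the 3 highest IgG peaks. Comparison, rules and alternatives were chosen with earlier results of these data known. No mm9 genome or annotation was used, so genes and sequences are not given.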

Additional observations from a re-analysis of the deposited data

How the results depend on the processing

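Each of 10 values was recomputed under up to 10 alternatives, 94 values in all, of which 83 stayed within the 95% interval of the value reported. Some of the 83 could not move, so their number is no measure of robustness. Settings that change only the DAXX list leave the share of ATRX peaks meeting IgG as it was. Removing peaks that meet IgG left the shared peaks, their medians and their places unchanged. In the 38 recomputed medians of score and width, shared peaks stayed above single ones each time. In the upper 50% of each list by score, 9.09% of ATRX peaks and 7.33% of DAXX peaks were shared, the median scores of shared peaks were 142.7 and 116.3, and 0% of ATRX peaks met IgG. Without the peaks identical in the WT ATRX list, 3.70% of ATRX peaks were shared, and 24.2% of shared DAXX peaks lay on chromosomes 8 and 11 (15.2% with them). With the WT ATRX list in place of TKO DAXX the shares were 3.27% of TKO ATRX and 3.82% of the substituted peaks, with 1.82% of the latter on chromosomes 8 and 11. Without these chromosomes 6.83% of DAXX peaks were shared. A smaller share after peaks are removed from the DAXX list follows by construction for ATRX; the other causes were not tested. No paired analysis was possible because each group holds 1 library. Depth is unknown, and peaks below the authors' score limits could not be seen.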

Other observations

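Some shared regions were close to each other, and no expected count was computed for these distances. Another shared region lay within 10 kb for 9 of the 106, within 100 kb for 11 and within 1000 kb for 27, and 5 of the 106 lay in the stretch at the start of chromosome 9. Within 10 kb of a peak of the other protein lay 59 of 1543 single ATRX peaks (3.82%, 2.92 to 4.90) and 82 of 1934 single DAXX peaks (4.24%, 3.39 to 5.24), also without an expected count.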
